A study of Saccharomyces cerevisiae with 38 samples.

Results

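Yeast (Saccharomyces cerevisiae) lacking normal function of one of 2 histone acetyltransferases, Esa1 or Gcn5, were set against each other through 4 glass arrays out of 38 in the series. The members are the arrays titled esa1 A and B (strain yMD27) and gcn5 A and B (strain yJS4), neither of which carries the ts2 allele of TAF1. Each array compared messenger RNA of the mutant with that of a wild-type (WT) reference, strain yMD13, in the other dye. The mutant was in Cy5 on array A and in Cy3 on array B. All cultures, the WT included, grew in synthetic medium without histidine to an optical density (OD600) of about 0.8 and were then held at 37 °C for 45 minutes, so every value is a ratio between heat-shocked cells. The titles say esa1 and gcn5 without naming the allele. ESA1 is an essential gene, so that its strain must carry a mutant form, and which form is not given in the sources used here. The labels do not say that arrays A and B came from separate cultures, so the spread between them may be technical.

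Esa1 is the catalytic subunit of NuA4, a complex that acetylates the tails of histones H4 and H2A at active genes. Gcn5 is the catalytic subunit of SAGA, which acetylates histone H3 and is recruited by activators such as Gcn4. Both complexes hold the large subunit Tra1, which contacts activators. The comparison asks which genes part the mutants of these enzymes.

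Relative to the median gene, phosphate genes (8 of 20), all 4 alpha-specific genes and pheromone pathway genes (9 of 26) were higher in esa1 than in gcn5, with values below the WT reference in gcn5. Glycolysis genes (15 of 19), cell wall genes (18 of 26) and histone genes (6 of 10) were also higher in esa1, with values above the reference in esa1. Ribosome biogenesis genes (31 of 109) and mitochondrial ribosomal protein genes (19 of 66) were lower in esa1. Stress genes driven by Msn2 and Msn4 lay above the reference in both mutants. Over all genes tested, 11.6 percent were higher and 8.03 percent lower in esa1.

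Values are log2 ratios over the WT reference less the median of the array, so 1 unit is a doubling relative to the median gene. A difference is esa1 minus gcn5 with its standard error (SE), from 2 arrays each, and a gene is called where its limma test gave an adjusted p under 0.05 over all 5517 genes tested. Of these, 640 genes (11.6 percent) were higher in esa1 than in gcn5 and 443 (8.03 percent) were lower, in all 1083 (19.6 percent), and the median gene lay at -0.02. At least 2-fold differences made up 243 of the higher and 72 of the lower genes. On 1080 of the called genes the esa1 and gcn5 arrays did not overlap. A call favours such genes, and the share over all genes was not counted, so this adds no separate support. Arrays A and B of esa1 correlated at 0.679 across genes, and those of gcn5 at 0.657 (genes are not independent replicates). No call survived on the deposited ratios without the median subtraction, where array medians ran from 0.561 and 1.0 in esa1 to 1.11 and 1.17 in gcn5. The median gene of the difference lay at -0.63 there, 469 genes had an unadjusted p under 0.05, and all directions given here are relative to the median gene.

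The mutants lie in different runs of slide numbers, as the titles give them: gcn5 on slides 30 and 33, esa1 on slides 47 and 51. Arrays with neighbouring numbers were taken as a slide run, and each of these runs also held 2 WT arrays, 2 ts2 arrays and the double mutant with ts2. With the run as a block 567 genes were called, 382 higher and 185 lower, and 532 of them were among the 1083. All 1083 kept their direction. When each mutant was set against the 2 WT arrays of its own run (WT B and F for gcn5, WT C and G for esa1), 658 genes were called, 524 of them among the 1083 in the same direction. Leaving out 1 array lowered the count to 496 (esa1 A), 620 (esa1 B), 711 (gcn5 A) or 607 (gcn5 B). List counts and single calls that differ with the run as a block are given with each list.

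The targeted genes were read first. GCN5 lay at -2.21 and -2.85 on the gcn5 arrays and at -0.41 and -0.18 on the esa1 arrays, against -0.28 to 0.45 on the 8 WT arrays, a difference of 2.23 ± 0.25, adjusted p = 3.7e-07. The GCN5 spot thus bears out the gcn5 label on both dyes. ESA1 lay at 1.09 and 0.81 on the esa1 arrays and at -0.30 and -0.08 on the gcn5 arrays. Its WT arrays ran from -1.09 to 0.73, and the difference of 1.14 ± 0.41 missed the threshold (adjusted p = 0.051). ESA1 messenger therefore did not settle the label of the esa1 arrays.

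The subunit genes of the 2 complexes were read next. Of 13 NuA4 genes, EAF3 was lower in esa1 and ACT1 higher, and of 18 SAGA genes GCN5 and UBP8 were higher in esa1 and SPT8 lower. The list medians were -0.07 and -0.01, next to -0.02 for all genes, and 2 of 13 and 3 of 18 genes were called, next to 19.6 percent of all genes. EAF3, whose chromodomain protein is shared by NuA4 and the Rpd3S deacetylase, lay at -0.44 and -0.25 in esa1 and at 0.65 and 0.53 in gcn5 (-0.94 ± 0.13, adjusted p = 1.4e-05). SPT8, a SAGA subunit that contacts TBP, lay at -0.58 and -0.42 in esa1 and at 0.41 and 0.33 in gcn5 (-0.87 ± 0.13, adjusted p = 2.1e-05). UBP8, the deubiquitinase of SAGA, lay at 0.12 and 0.11 in esa1 and at -0.61 and -0.70 in gcn5 (0.77 ± 0.16, adjusted p = 0.0011). For each of these genes the mutants fell on opposite sides of the WT reference. Only EAF3 and SPT8 among them also passed with the run as a block, with GCN5, while UBP8 (0.56) and ACT1 (0.77) did not. ACT1, the actin gene (0.68 ± 0.22, adjusted p = 0.031), lost its call when any 1 of the 4 arrays was left out. TRA1, the shared subunit, lay at 0.15 ± 0.17, with a 95 percent interval of -0.21 to 0.5.

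**Figure D1:**
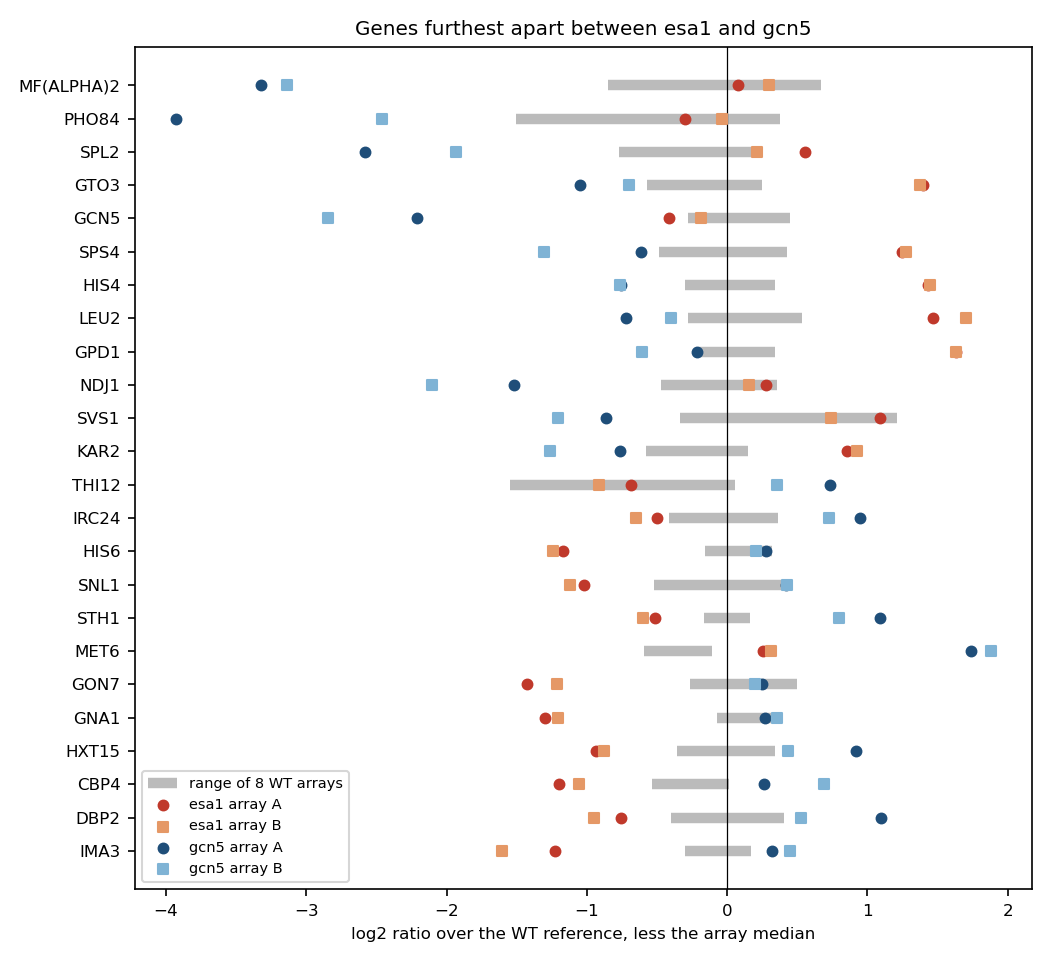
Log2 ratio over the WT reference, less the array median (horizontal axis), of the 12 genes highest and the 12 lowest in esa1 minus gcn5 (vertical axis). Circles are arrays A and squares arrays B, in red tones for esa1 and blue tones for gcn5, and the grey bar spans the 8 WT arrays. The pairs do not overlap in any of these genes, because the rule took only such genes. The value farthest out is gcn5 array A of PHO84 at -3.93.

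The widest gaps among the 12 highest genes were those of MF(ALPHA)2, PHO84 and SPL2, which were low in gcn5 and near the reference in esa1. They belong to 2 groups, phosphate genes and mating genes. Others of the 12, such as GTO3, SPS4 and HIS4, lay above the reference in esa1 and below it in gcn5. PHO84, the high-affinity phosphate transporter, lay at -3.93 and -2.46 on the gcn5 arrays and at -0.30 and -0.04 on the esa1 arrays. The WT arrays ran from -1.5 to 0.38, and the difference was 3.02 ± 0.73, adjusted p = 0.0041; without gcn5 array A it was 2.24 and no longer passed. SPL2, which tunes low-affinity phosphate transport, lay at -2.58 and -1.93 in gcn5 and at 0.56 and 0.21 in esa1 (2.64 ± 0.53, adjusted p = 0.00065). VTC3, part of the vacuolar polyphosphate polymerase, lay at -2.05 and -1.45 in gcn5 and at 0.24 and 0.03 in esa1 (1.89 ± 0.39, adjusted p = 0.00093). In all 3 genes both gcn5 arrays were below every WT array. Of 20 genes of the phosphate (PHO) regulon, which Pho4 switches on, 8 were higher in esa1 and 1 was lower, with a median of 0.73 (0.12 on the deposited scale). The list's array medians were 0.07 and 0.05 on esa1 arrays A and B and -1.11 and -0.66 on gcn5 arrays A and B, and -0.14 to 0.21 on the WT arrays. PHO8, a vacuolar phosphatase (1.69), VTC4 (1.45), PHM8 (1.25), VTC1 (0.95) and VTC2 (0.66) made up the rest of the higher genes. The one lower gene was GIT1, a glycerophosphoinositol transporter (-0.96 ± 0.30, adjusted p = 0.027), whose call was lost without esa1 array B (-0.72) or either gcn5 array (-0.93 and -1.0) and with the run as a block (-0.66). The secreted phosphatase PHO5 lay at 0.79 ± 0.41 and did not pass (adjusted p = 0.18, interval -0.04 to 1.63). The run as a block left 7 higher, and the higher count was 6 without esa1 array A, 6 without esa1 array B, 5 without gcn5 array A and 7 without gcn5 array B. VTC2 (0.60) was the one lost. Calls were lost for VTC1 when any 1 of the 4 arrays was left out (0.82 to 1.09) and for VTC2 without esa1 array A (0.61), esa1 array B (0.72) or gcn5 array A (0.36).

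All 4 genes expressed in alpha cells alone were higher in esa1 than in gcn5, with a median of 1.80 (1.19 on the deposited scale). MF(ALPHA)2, a gene for the pheromone alpha-factor, lay at -3.32 and -3.14 in gcn5 and at 0.08 and 0.30 in esa1. Its difference of 3.42 ± 0.40, adjusted p = 7.8e-07 was the largest of all genes that the naming rule took, and WT arrays ran from -0.85 to 0.67. STE3, the receptor for a-factor, lay at -1.67 and -1.14 in gcn5 and at 0.52 and 0.29 in esa1 (1.82 ± 0.25, adjusted p = 8.4e-06). SAG1, the alpha-agglutinin, lay at -2.23 and -1.86 in gcn5 and -0.36 and -0.17 in esa1 (1.78 ± 0.41, adjusted p = 0.0029). MF(ALPHA)1 differed less (1.01 ± 0.33, adjusted p = 0.03). All 4 also passed with the run as a block, and 3 kept their call whichever of the 4 arrays was dropped. The exception was MF(ALPHA)1 without esa1 array A (1.15), esa1 array B (0.87) or gcn5 array A (0.69). None of the 7 a-specific genes passed in limma (1 had an unadjusted p under 0.05); their median was -0.61, and STE2, the alpha-factor receptor, lay at -1.10 ± 0.46 (adjusted p = 0.098, interval -2.04 to -0.15). Ratios to a reference give no level, so the mating type itself was not checked.

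Pheromone pathway genes went the same way with smaller gaps. Of 26, 9 were higher in esa1 and 0 lower, with a median of 0.70 (0.09 on the deposited scale) and 4 higher with the run as a block. SST2, which shuts off the G protein of the pathway, lay at -1.26 and -1.07 in gcn5 and at 0.10 and 0.16 in esa1 (1.30 ± 0.24, adjusted p = 0.00029). GPA1, the G protein alpha subunit, lay at -0.58 and -0.46 in gcn5 and at 0.87 and 0.53 in esa1 (1.22 ± 0.15, adjusted p = 2.3e-06). When 1 array was left out the count was 5 without esa1 array A, 5 without esa1 array B, 5 without gcn5 array A and 8 without gcn5 array B. SST2 was thus low in gcn5 and close to the reference in esa1, while GPA1 lay on opposite sides of it. STE4, the beta subunit (0.85, and 0.75 and not called without gcn5 array A), AGA1 (1.02), MSG5 (0.77), SCW10 (0.73), PRM8 (0.72) and the mating kinase gene FUS3 (0.63) were also higher. PRM4 (1.11) lost its call without esa1 array A (1.12), esa1 array B (1.10) or gcn5 array A (0.70). Further calls were lost for AGA1 when any 1 of the 4 arrays was left out (0.76 to 1.28), SCW10 without esa1 array A (0.74), esa1 array B (0.73) or gcn5 array B (0.65), PRM8 without esa1 array A (0.48) or gcn5 array A (0.56) and FUS3 without esa1 array B (0.51) or gcn5 array A (0.55). Of these genes STE4 (0.75), AGA1 (1.05), SCW10 (0.70), FUS3 (0.46) and PRM4 (0.87) were not called with the run as a block. Of 7 markers of haploid cells, 3 were higher (GPA1, STE4 and HO) and NEJ1, which acts in end joining of DNA breaks, was lower (-0.76 ± 0.14, adjusted p = 0.00031). The call of HO (1.04) was lost without esa1 array A (1.13), esa1 array B (0.95) or gcn5 array B (0.76), and that of STE4 with the run as a block, which left 2 higher.

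Glycolysis and fermentation genes were higher in esa1. Of 19 genes 15 were higher and 0 lower, with a median of 0.75 (0.15 on the deposited scale). The list's medians were 1.20 and 0.87 on esa1 arrays A and B and 0.22 and 0.20 on gcn5 arrays A and B, next to -0.25 to 0.09 on the WT arrays, so that both mutants lay above the WT range and esa1 farther. TDH1, a glyceraldehyde-3-phosphate dehydrogenase, lay at 1.47 and 1.25 in esa1 and at -0.38 and -0.27 in gcn5 (1.69 ± 0.21, adjusted p = 2e-06). ADH1, the main fermentative alcohol dehydrogenase, lay at 1.13 and 0.95 in esa1 and at -0.21 and -0.54 in gcn5 (1.41 ± 0.18, adjusted p = 3.2e-06). GPM1, phosphoglycerate mutase, lay at 1.58 and 0.94 in esa1 and -0.0045 and 0.04 in gcn5 (1.24 ± 0.25, adjusted p = 0.00076). The steps from PGI1 (1.17) through PFK1 (0.64), PFK2 (0.71), TPI1 (1.08), PGK1 (0.62) and ENO1 (0.86) to the pyruvate kinase gene CDC19 (0.62) were all among the higher genes. FBA1 (0.58), PDC1 (0.47), PDC5 (0.42) and the hexokinase gene HXK1 (-0.70) did not pass. The count was 10 with the run as a block, 9 without esa1 array A, 16 without esa1 array B, 11 without gcn5 array A and 13 without gcn5 array B. The genes GPM1 (0.89), PGK1 (0.58), CDC19 (0.54) and TDH3 (0.52) were among those lost with the block. Calls were also lost for PFK1 without esa1 array A (0.55), gcn5 array A (0.68) or gcn5 array B (0.61), PGK1 without esa1 array A (0.5), gcn5 array A (0.66) or gcn5 array B (0.58) and CDC19 without esa1 array A (0.42), gcn5 array A (0.5) or gcn5 array B (0.74). TDH1 to TDH3, and ENO1 and ENO2, are near-identical in sequence, so their spots can share signal. The glycerol gene GPD1, which draws on the same pathway, lay at 1.63 and 1.63 in esa1 and at -0.22 and -0.61 in gcn5 (2.04 ± 0.25, adjusted p = 1.7e-06).

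Cell wall genes showed the same direction. Of 26 genes 18 were higher in esa1 and 0 lower, with a median of 0.85 (0.24 on the deposited scale), and the higher count was 14 with the run as a block, 12 without esa1 array A, 13 without esa1 array B, 11 without gcn5 array A and 12 without gcn5 array B. The array medians were 0.85 and 0.62 on esa1 arrays A and B and -0.17 and -0.20 on gcn5 arrays A and B. YPS1, a protease at the cell surface, lay at 1.13 and 0.89 in esa1 and at -0.72 and -0.76 in gcn5 (1.75 ± 0.20, adjusted p = 6.3e-07). CWP1, a mannoprotein of the wall, lay at 0.77 and 0.59 in esa1 and at -1.19 and -0.66 in gcn5 (1.61 ± 0.31, adjusted p = 0.00046). NCW2 lay at 1.24 and 0.98 in esa1 and -0.61 and -0.32 in gcn5 (1.57 ± 0.20, adjusted p = 3.6e-06). In these 3 genes each mutant lay on its own side of the reference. The kinase gene SLT2 (1.21) and the factor it activates, RLM1 (1.01), were higher in esa1 too, as were the glucan synthase genes FKS1 (0.81) and GSC2 (1.08) and the chitin synthase gene CHS1 (0.97). SLT2 (1.07) was not called with the run as a block. Calls were lost for SLT2 without gcn5 array A (0.65), RLM1 without esa1 array B (0.97) or gcn5 array A (0.67), FKS1 without esa1 array A (0.80) or gcn5 array B (0.79), GSC2 when any 1 of the 4 arrays was left out (1.05 to 1.11) and CHS1 without gcn5 array A (0.69).

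**Figure D2:**
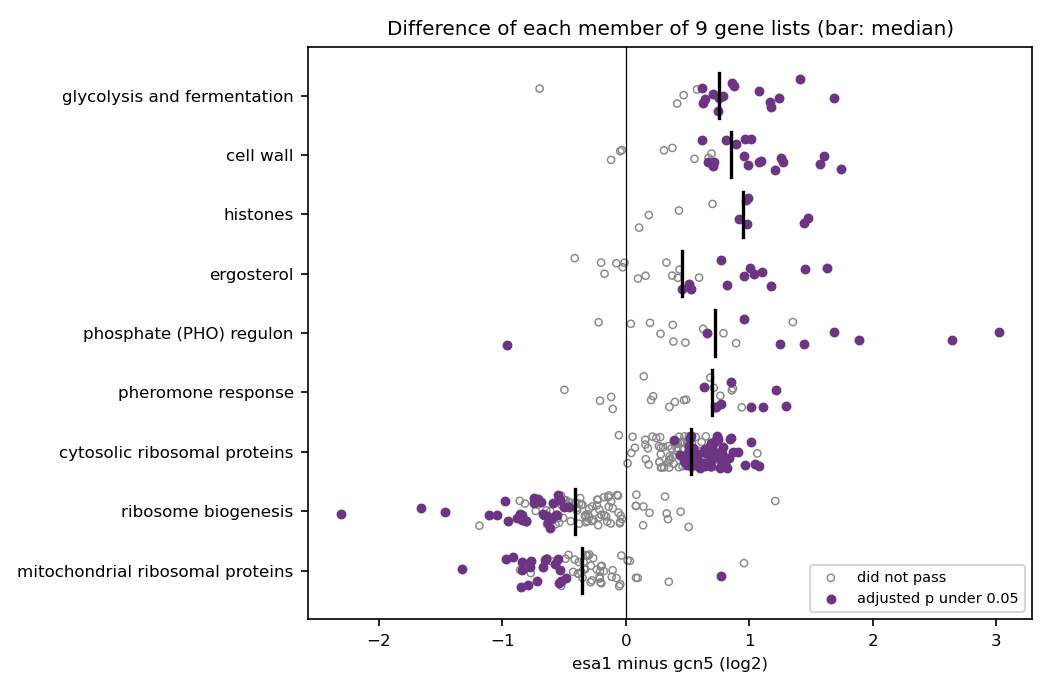
Difference esa1 minus gcn5 (log2, horizontal axis) of each tested member of 9 gene lists (rows), filled where the adjusted p was under 0.05 and open elsewhere, with a bar at the list median. Medians run from 0.95 for histones to -0.41 for ribosome biogenesis.

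Of 10 histone genes 6 were higher in esa1 and 0 lower, with a median of 0.95 (0.34 on the deposited scale). HTA2, one of the 2 genes for H2A, lay at 0.67 and 0.55 in esa1 and at -1.05 and -0.67 in gcn5 (1.47 ± 0.24, adjusted p = 7.9e-05). HTB2, its divergently transcribed neighbour for H2B, lay at 0.65 and 0.86 in esa1 and at -0.64 and -0.74 in gcn5 (1.45 ± 0.26, adjusted p = 0.00019). Both arrays of gcn5 were below the WT range in each (-0.40 to 0.41 and -0.08 to 0.38). The H3 and H4 genes HHT1 (0.99), HHT2 (0.98), HHF1 (0.91) and HHF2 (0.98) were higher too. HHF1 (0.86) and HHF2 (0.83) were not called with the run as a block, while HHO1 (1.02) was, which made 5 of 10 higher. Calls were lost for HHF1 when any 1 of the 4 arrays was left out (0.68 to 1.15) and for HHF2 without esa1 array A (0.82), esa1 array B (1.14) or gcn5 array A (0.77). The other pair for H2A and H2B, HTA1 (0.19 ± 0.24) and HTB1 (0.43 ± 0.21), did not pass, nor did the variant HTZ1 (0.11 ± 0.21) and the linker histone HHO1 (0.70 ± 0.26) without the block. Copies of a histone gene are close in sequence, and the spots may not part them.

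Ribonucleotide reductase, which makes the building blocks of DNA, was higher in esa1 at 3 of its 4 genes. RNR4 lay at 1.82 and 1.68 in esa1 and at 0.20 and 0.23 in gcn5 (1.53 ± 0.20, adjusted p = 3.1e-06), and RNR2 at 1.90 and 1.5 in esa1 and 0.47 and 0.39 in gcn5 (1.27 ± 0.19, adjusted p = 2.4e-05). RNR1 (1.17 ± 0.32, adjusted p = 0.0097) lost its call without esa1 array A (1.02) or gcn5 array B (0.74), and the damage-induced subunit gene RNR3 did not pass (0.88 ± 0.65). The kinase gene DUN1 (0.79) and SML1 (0.92), which encodes an inhibitor of the enzyme, were higher too. The list had 5 of 10 higher and 0 lower, with a median of 0.90 (0.29 on the deposited scale), and the higher count was 3 without esa1 array A, 5 without esa1 array B, 5 without gcn5 array A and 3 without gcn5 array B. DUN1 (0.68) was not called with the run as a block, which left 4 higher, and the call was lost for DUN1 without esa1 array A (0.48) or gcn5 array B (0.34). Among G1/S genes 6 of 30 were higher and 0 lower (median 0.40, turning to -0.21 on the deposited scale). SVS1 led them, at 1.09 and 0.74 in esa1 and -0.86 and -1.21 in gcn5 (1.95 ± 0.41, adjusted p = 0.0011), though its WT arrays reached 1.21. MNN1, a mannosyltransferase of the Golgi, followed (1.5 ± 0.19, adjusted p = 2.5e-06).

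Amino acid synthesis genes under Gcn4 were higher in esa1 in 26 of 56 cases and lower in 1, with a median of 0.52 that turned to -0.09 on the deposited scale. Over all genes tested 11.6 percent were higher and 8.03 percent lower. The array medians were 0.56 and 0.47 on esa1 arrays A and B and 0.04 and -0.13 on gcn5 arrays A and B. HIS4, of histidine synthesis, lay at 1.43 and 1.45 in esa1 and at -0.76 and -0.76 in gcn5 (2.20 ± 0.25, adjusted p = 7.4e-07). SER3, of serine synthesis, lay at 1.12 and 0.85 in esa1 and -0.94 and -0.68 in gcn5 (1.80 ± 0.40, adjusted p = 0.002, with 1.53 and no call without esa1 array A). The gcn5 arrays lay below the WT range for HIS4 (-0.30 to 0.34), while those of SER3 fell inside it (-1.13 to 0.36). HOM2 (1.71), HIS1 (1.70), ARG4 (1.53), LEU1 (1.29) and ILV3 (1.27) also differed by more than 1. LEU1 (1.22) was not called with the run as a block, and the call was lost for LEU1 without esa1 array B (1.24) or gcn5 array B (1.22). LEU2 (2.14 ± 0.31, adjusted p = 1.5e-05) and HIS3 (1.01 ± 0.19, adjusted p = 0.00029) are used as markers in strain construction, and the labels do not give the strains' marker genotypes. HIS2 was the lower gene of the list (-0.96 ± 0.16, adjusted p = 8.6e-05), at -0.68 and -0.89 in esa1. The list does not hold HIS6, also of histidine synthesis, which was called lower in esa1 (-1.45 ± 0.22). The count was 17 with the run as a block and 19 to 25 when 1 array was left out.

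Methionine and sulfur genes ran against this pattern. Their median was -0.41 (-1.01 on the deposited scale), with 4 of 24 lower in esa1 and 1 higher, and the array medians were 0.25 and 0.21 on esa1 arrays A and B and 0.71 and 0.80 on gcn5 arrays A and B. MET6, methionine synthase, lay at 1.74 and 1.88 in gcn5 and at 0.25 and 0.31 in esa1 (-1.53 ± 0.37, adjusted p = 0.0045, with -1.41 and no call without esa1 array B). MET17, which makes homocysteine, lay at 1.79 and 1.83 in gcn5 and 0.82 and 0.44 in esa1 (-1.19 ± 0.21, adjusted p = 0.00013). Both mutants were above the WT arrays for these genes, gcn5 more so. MET10 (-0.64) and MET3 (-0.88) were lower as well, but both lost their call when any 1 of the 4 arrays was left out. MET10 (-0.62), MET3 (-0.95) and MET28 (0.92) were not called with the run as a block. The list still had 4 lower and 0 higher with the block, other members being called there, and its median was -0.56. The lower count was 2 without esa1 array A, 1 without esa1 array B, 2 without gcn5 array A and 2 without gcn5 array B. MET28, a cofactor of the activator Met4, was higher in esa1 (0.90 ± 0.24, adjusted p = 0.0098), a call lost without esa1 array A (0.85) or gcn5 array A (0.62).

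Of 25 ergosterol pathway genes 12 were higher in esa1 and 0 lower, with a median of 0.45 that turned to -0.16 on the deposited scale. The higher count was 9 with the run as a block, 7 without esa1 array A, 9 without esa1 array B, 10 without gcn5 array A and 10 without gcn5 array B. ERG27, a keto reductase of the pathway, lay at 0.62 and 0.29 in esa1 and at -1.16 and -1.19 in gcn5 (1.63 ± 0.14, adjusted p = 2.6e-08), and ERG4, of the last step, at 0.88 and 0.55 in esa1 and -0.61 and -0.87 in gcn5 (1.45 ± 0.18, adjusted p = 3.2e-06). Both were low in gcn5 beyond the WT range of -0.12 to 0.38 and -0.11 to 0.34. HMG2 (1.18), one of a pair of genes for HMG-CoA reductase, lost its call without esa1 array A (1.09), esa1 array B (1.27) or gcn5 array A (0.90). KAR2, the Hsp70 of the endoplasmic reticulum, lay at 0.85 and 0.93 in esa1 and at -0.76 and -1.26 in gcn5 (1.90 ± 0.19, adjusted p = 9e-08). Every KAR2 value of esa1 was above the 8 WT arrays and every value of gcn5 below them (-0.58 to 0.15).

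Stress genes driven by Msn2 and Msn4 had medians above the WT range in both mutants. Of 54 genes 6 were higher in esa1 and 0 lower, with a median difference of 0.27 that turned to -0.34 on the deposited scale. Over all genes tested 11.6 percent were higher, a share near that of this list and above that of the 28 heat shock chaperones given below. The array medians were 1.10 and 0.94 on esa1 arrays A and B and 0.69 and 0.76 on gcn5 arrays A and B, next to -0.31 to 0.21 on the WT arrays. HSP26, a small heat shock protein, lay at 1.92 and 1.71 in esa1 and at 2.06 and 1.98 in gcn5, a difference of -0.21 ± 0.33 with a 95 percent interval of -0.89 to 0.48. CTT1, the cytosolic catalase, lay at 1.84 and 1.67 in esa1 and 1.66 and 2.10 in gcn5 (difference -0.12 ± 0.36, interval -0.85 to 0.61). DDR2 lay at 1.90 and 1.82 in esa1 and 2.68 and 2.59 in gcn5, and its difference of -0.78 ± 0.34 missed the threshold (adjusted p = 0.11, interval -1.48 to -0.08). These 3 genes were chosen after their values were seen. PNC1, nicotinamidase, did differ (1.23 ± 0.22, adjusted p = 0.00024), as did STF2 (1.26 ± 0.43, adjusted p = 0.038), which lost its call without esa1 array A (1.0), esa1 array B (1.52) or gcn5 array A (0.57). The higher count of the list was 3 with the run as a block (STF2 (1.06) among those lost), 2 without esa1 array A, 5 without esa1 array B, 3 without gcn5 array A and 5 without gcn5 array B. Among heat shock chaperones 2 of 28 were higher, KAR2 and BTN2 (1.52 ± 0.35, adjusted p = 0.0028, and 1.27 with no call without gcn5 array B), and 0 lower. The carbohydrate store genes were mixed: of 18, GSY1, a glycogen synthase, lay at -1.77 and -1.53 in gcn5 and at 0.16 and 0.07 in esa1 (1.76 ± 0.27, adjusted p = 3.5e-05), NTH1 was higher (0.70) and GLG2 lower (-0.65). GLG2 lost its call when any 1 array was left out and NTH1 without esa1 array A (0.57), gcn5 array A (0.68) or gcn5 array B (0.72), and neither was called with the run as a block (-0.56 for GLG2 and 0.77 for NTH1).

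**Figure D3:**
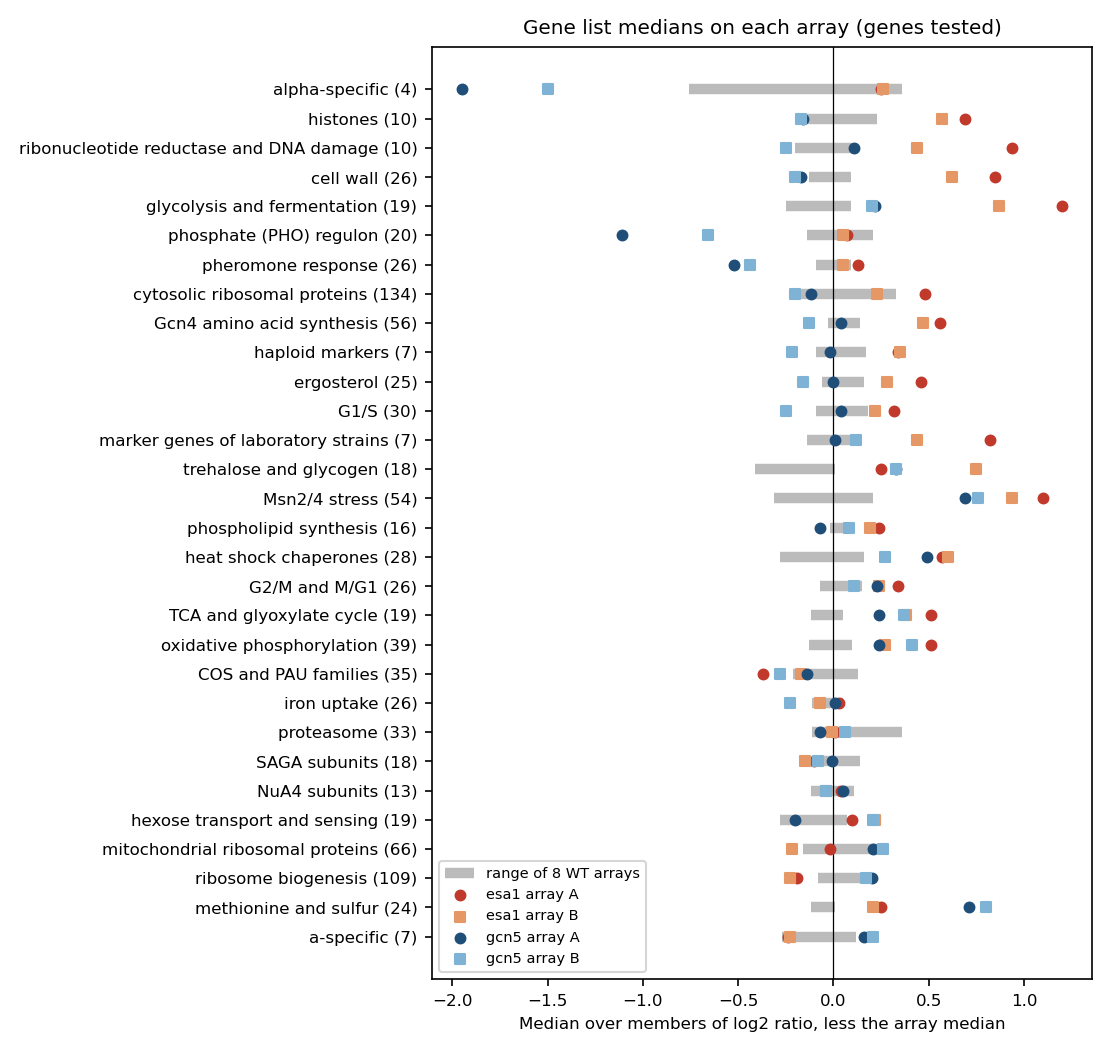
Median over the tested members of each gene list (rows, with the number tested) of the log2 ratio less the array median (horizontal axis) on each of the 4 arrays, next to the range of the list medians on 8 WT arrays (grey bar). Glycolysis, cell wall and histone lists lie to the right on both esa1 arrays, and the phosphate, alpha-specific and pheromone lists to the left on both gcn5 arrays.

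Genes of the translation machinery split in 2. Cytosolic ribosomal protein genes were higher in esa1 in 53 of 134 cases and lower in 0, with a median of 0.53 that turned to -0.08 on the deposited scale. Ribosome biogenesis genes were lower in esa1 in 31 of 109 cases and higher in 0, with a median of -0.41, and mitochondrial ribosomal protein genes were lower in 19 of 66 and higher in 1 (median -0.36); on the deposited scale these medians were -1.02 and -0.96. The ribosomal protein medians were 0.48 and 0.23 on esa1 arrays A and B and -0.12 and -0.20 on gcn5 arrays A and B, and -0.20 to 0.33 on the WT arrays. That range holds esa1 array B and gcn5 array A, and gcn5 array B lies at its lower end. With the run as a block the ribosomal protein count was 6, that of biogenesis genes 12 and that of mitochondrial ones 9. The higher gene of the mitochondrial list was MRP8 (0.77 ± 0.23), which was not called with the block (0.76). The ribosomal protein count was 10 without esa1 array A, 17 without esa1 array B, 17 without gcn5 array A and 28 without gcn5 array B. The biogenesis count was 9 without esa1 array A, 16 without esa1 array B, 21 without gcn5 array A and 7 without gcn5 array B, and the mitochondrial count was 5 without esa1 array A, 7 without esa1 array B, 16 without gcn5 array A and 3 without gcn5 array B. RPS2 lay at 0.77 and 0.53 in esa1 and at -0.53 and -0.33 in gcn5 (1.08 ± 0.19, adjusted p = 0.00016), and RPL18B at 0.41 and 0.56 in esa1 and -0.64 and -0.42 in gcn5 (1.02 ± 0.19, adjusted p = 0.00044). RPL21B (1.04) was not called without esa1 array B (0.74) or with the run as a block (0.76). Many ribosomal protein genes have a near-identical copy that their spot could capture.

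Among biogenesis genes DBP2, an RNA helicase, lay at -0.76 and -0.95 in esa1 and at 1.10 and 0.52 in gcn5 (-1.66 ± 0.32, adjusted p = 0.00045). RRP36 lay at -0.32 and -0.79 in esa1 and 1.10 and 0.72 in gcn5 (-1.47 ± 0.37, adjusted p = 0.0062), with no call without esa1 array A (-1.44) or gcn5 array B (-1.40). NOP4 (-2.31 ± 0.79) rested on esa1 array B, where it lay at -3.49 against -0.5 on array A; without array B the difference was -0.70 and without gcn5 array A or B -2.20 or -2.42, none of them called. MRPL28, of the large subunit of the mitochondrial ribosome, lay at -0.52 and -0.41 in esa1 and at 0.81 and 0.92 in gcn5 (-1.33 ± 0.18, adjusted p = 8.4e-06). MRPL51 (-0.97) was not called without esa1 array A (-0.84) or gcn5 array B (-0.71), and MRPL39 (-0.92) without esa1 array A (-0.91), esa1 array B (-0.93) or gcn5 array B (-0.52). Among these genes RRP36 (-1.08), NOP4 (-1.95), MRPL51 (-0.73) and MRPL39 (-0.69) were not called with the run as a block. MRPL28 parted the mutants on both sides of the WT range, whereas the esa1 values of MRPL51 and MRPL39 lay inside it.

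Some single genes with a large gap belong to no list above. GTO3, a glutathione transferase, lay at 1.39 and 1.37 in esa1 and at -1.05 and -0.70 in gcn5 (2.26 ± 0.23, adjusted p = 1.1e-07). SPS4, a gene known from sporulation, lay at 1.25 and 1.28 in esa1 and -0.62 and -1.31 in gcn5 (2.22 ± 0.36, adjusted p = 5.4e-05), and PCL9, a cyclin of the Pho85 kinase, at 0.84 and 0.79 in esa1 and -1.03 and -0.71 in gcn5 (1.68 ± 0.26, adjusted p = 3.2e-05). In all 3 both esa1 arrays were above the WT range and both gcn5 arrays below it. NDJ1, a meiotic telomere protein gene, was instead low in gcn5 alone (-1.52 and -2.10, against 0.28 and 0.16 in esa1; 2.02 ± 0.37, adjusted p = 0.00029). In the other direction GNA1, which acts in the synthesis of chitin precursors, lay at -1.30 and -1.20 in esa1 and at 0.27 and 0.36 in gcn5 (-1.56 ± 0.23, adjusted p = 2.1e-05). GON7, of the KEOPS complex that modifies tRNA, lay at -1.43 and -1.21 in esa1 and 0.25 and 0.20 in gcn5 (-1.54 ± 0.32, adjusted p = 0.0011), and CBP4, which helps assemble respiratory complex III, at -1.20 and -1.05 in esa1 and 0.26 and 0.69 in gcn5 (-1.60 ± 0.26, adjusted p = 5.9e-05). These 3 genes were low in esa1, with gcn5 inside the WT range for GON7, above it for CBP4 and with 1 array inside and 1 just above it for GNA1. HXT15, a hexose transporter with a near-identical copy (-1.58 ± 0.27, adjusted p = 0.00012), and THI12, one of a family of near-identical thiamine genes (-1.35 ± 0.36, adjusted p = 0.0086), were also lower in esa1. THI12 lost its call without esa1 array B (-1.28) or gcn5 array A (-1.20), and both its esa1 values lay inside the WT range of -1.55 to 0.05. The low end of that range was WT array A, and the median of the WT arrays was -0.03.

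The other 5 of the 12 lowest genes lie on chromosome IX: IMA3, STH1, SNL1, HIS6 and IRC24. IMA3, an isomaltase gene with a near-identical copy, lay at -1.23 and -1.60 in esa1 and at 0.32 and 0.44 in gcn5 (-1.80 ± 0.21, adjusted p = 1.1e-06). STH1, the motor of the RSC chromatin remodeler, lay at -0.51 and -0.60 in esa1 and 1.09 and 0.80 in gcn5 (-1.5 ± 0.22, adjusted p = 2.1e-05). HIS6, of histidine synthesis, lay at -1.17 and -1.24 in esa1 and 0.28 and 0.21 in gcn5 (-1.45 ± 0.22, adjusted p = 3.5e-05), against the direction of HIS4. SNL1 (-1.5 ± 0.30, adjusted p = 0.00064) and IRC24 (-1.41 ± 0.25, adjusted p = 0.00016) completed the set. Of 203 tested genes of that chromosome 59 (29.1 percent) were lower in esa1 and 10 higher, with a median difference of -0.46, next to 8.03 percent lower over all genes. The chromosome's median gene lay at -0.31 and -0.56 on the esa1 arrays and at 0.04 and 0.00 on the gcn5 arrays. Other arrays of the slide run of esa1 were low there too, at -0.47 (ts2 E), -0.33 (esa1 ts2 B), -0.21 (WT G), -0.12 (ts2 B) and -0.12 (esa1 ts2 A), though WT C of that run lay at 0.08. With the run as a block the median was -0.28, with 19 genes lower and 10 higher. The 5 named genes passed there by construction, since the naming rule took only genes that passed with the block. The part of the chromosome or of the run in these results was not tested.

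**Figure D4:**
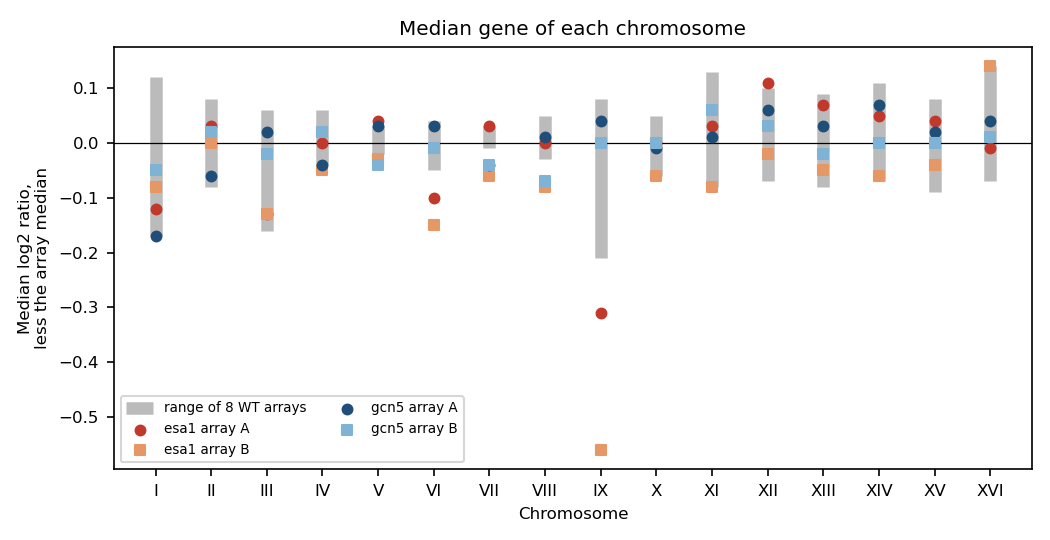
Median log2 ratio less the array median (vertical axis) over the tested genes of each chromosome (horizontal axis) on the esa1 and gcn5 arrays, with a grey bar for the 8 WT arrays. Chromosome IX on esa1 arrays A and B lies at -0.31 and -0.56, below the WT bar, and the lowest value of any other chromosome on these 4 arrays is -0.17.

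**Figure D5:**
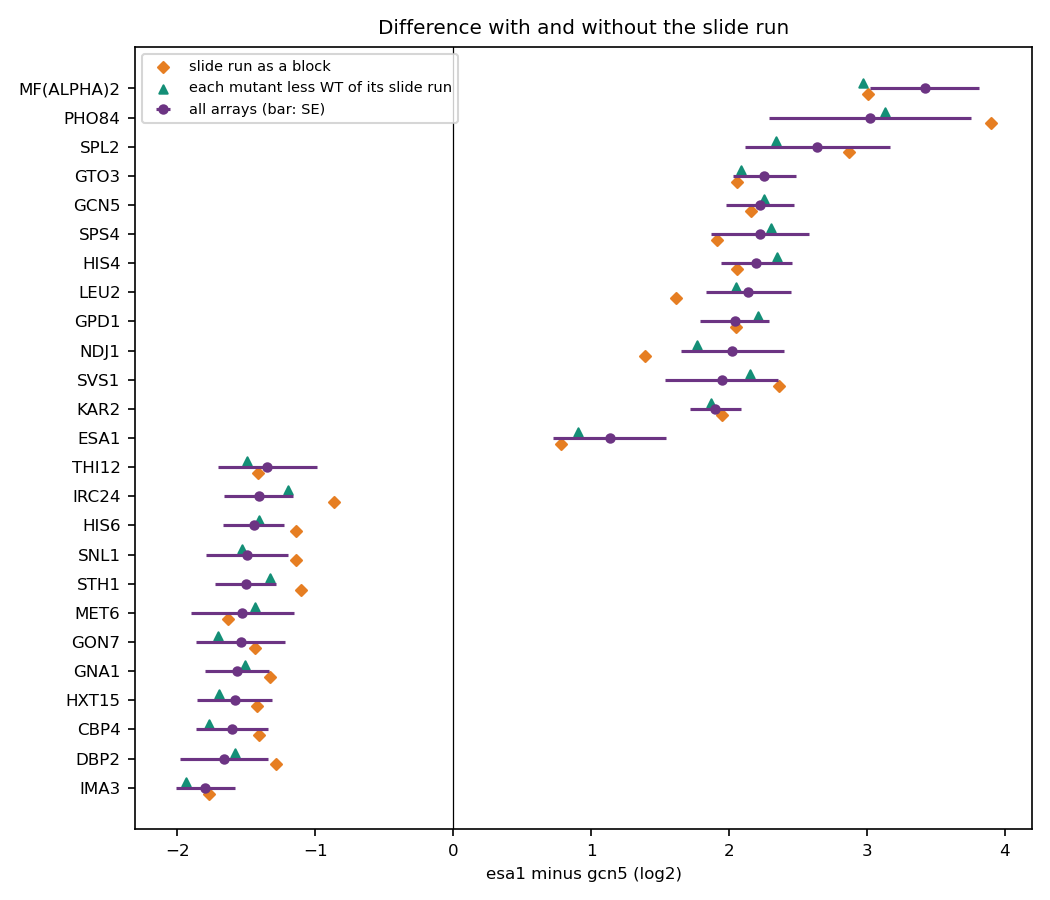
Difference esa1 minus gcn5 (log2, horizontal axis) of the 24 leading genes and ESA1 (vertical axis) from all arrays with its SE (circle and bar), with the slide run as a block (diamond) and with each mutant less the 2 WT arrays of its own run (triangle). All 3 values lie on the same side of 0 in every gene shown, with PHO84 moving from 3.02 to 3.90 and LEU2 from 2.14 to 1.62. For the 24 leading genes the shared side of circle and diamond was fixed by the rule, which required a call in that direction with the block.

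The same pair of mutations was also measured in strains that carry ts2 in addition, on 4 further arrays that share their slides with the arrays above. The difference esa1 ts2 minus gcn5 ts2 was 5.45 ± 0.73 for PHO84, 2.17 ± 0.23 for GTO3, 1.95 ± 0.25 for HIS4, 1.31 ± 0.19 for KAR2 and 1.24 ± 0.40 for MF(ALPHA)2. It was small for TDH1 (0.10 ± 0.21) and RNR2 (0.04 ± 0.19). Of 97 named genes called without ts2, 8 had a difference of opposite sign with it. HO, the mating type switching endonuclease, went from 1.04 to -1.35 ± 0.32. The others lay closer to 0 with ts2: MET17 (0.18 ± 0.21), MET3 (0.47 ± 0.28), GIT1 (0.37 ± 0.30), GLG2 (0.29 ± 0.21), PRM4 (-0.25 ± 0.38), COS1 (-0.17 ± 0.12) and COS6 (-0.07 ± 0.14). The median of the methionine and sulfur list was 0.36 with ts2, against -0.41 without. Whether the differences with and without ts2 are unequal was not tested.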

How the data were processed

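Two-colour arrays of polyA RNA were read from the authors' deposited table, which holds a linear ratio of test strain over WT reference for 7056 spots on 38 arrays. Per the series description, dye swaps were mode normalized in R and corrected by Bacillus subtilis spike RNA per OD600; the sources used here do not say at which of those steps the deposited ratios were taken. Spot signals and flags were not used. Of the spots, 5579 carried 1 gene name (GEO's platform annotation, updated through RefSeq R64, 5574 matched), giving 5548 genes, 30 of them averaged over several spots; 1477 spots without a name were left out.

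Ratios at or below 0 (0.752 to 4.23 percent per array) were set to missing, log2 was taken and each array's median subtracted. A gene was tested where both esa1 and both gcn5 arrays, at least 4 of 6 ts2 and 6 of 8 WT arrays held a value. All 38 arrays entered a linear model across all genes (limma 3.58.1, R 4.3.3). Each mutant group had its own term, WT had none, and each gene a dye effect (14 parameters, 24 residual and 3.05 prior degrees of freedom). The WT labels name no test dye, which was taken from the slide mate, or for WT E from its letter. The spread was thus shared over all groups, and an SE is not that of the 2 arrays. P-values of esa1 minus gcn5 were adjusted by Benjamini and Hochberg. An exact permutation of 2 against 2 arrays cannot go below 0.33, and none is given. On simulated data with 200 of 5517 genes changed in esa1, 61 percent of changes of 1 and 14 percent of changes of 0.5 on the log2 scale were recovered, with 7 of 82 calls false. The simulated noise was independent between arrays and held no effect of slide run or chromosome. These shares therefore do not give the error rate of the calls reported here.

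Genes were named by a rule: the 12 highest and 12 lowest called genes with a standard name that also passed in the fit blocked on slide run and did not overlap between arrays; the targeted genes and called NuA4 and SAGA subunits; up to 3 and 2 called members of each of 30 lists; and up to 6 genes at 0.5 or beyond on opposite sides. Other list members named were chosen after their values were seen. The members, lists and tests were chosen with earlier results of these data known. RPP1, a gene for ribonuclease P that a name pattern had put among ribosomal proteins, was taken out after its value was seen. Gene levels cannot be read from ratios.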

Additional observations from a re-analysis of the deposited data

Results flagged for a closer look

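The pairs of esa1 and gcn5 arrays are too small to look for an array that stands apart, so the 8 WT arrays were examined for the 24 leading genes (GCN5 among them), ESA1 and PCL9, 26 in all. In 7 cases 1 WT array lay apart from the other 7 by more than the critical value of Dixon's test at 95 percent, where chance alone flags about 1 in 20. WT array A stood apart for KAR2 (-0.58), GNA1 (0.35), MET6 (-0.60) and THI12 (-1.55). WT array H did so for PHO84 (-1.5) and SNL1 (-0.52), and WT array B for CBP4 (-0.54). For PHO84 the gcn5 arrays were lower still, at -3.93 and -2.46, while THI12 in esa1 lay above its WT array A.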

How the results depend on the processing

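The count of 1083 called genes (640 higher and 443 lower in esa1) stayed within 1.5 times without the dye term (831), with the slide as a random block (1075), with the 4 arrays alone (1027), with WT, esa1 and gcn5 arrays alone (1197), without a filter on missing values (1083), with genes above 0 on all arrays (1071) and without chromosome IX (999). A like count does not mean the same genes. Of the 1083, 779 were also called with the 4 arrays alone and 976 with WT, esa1 and gcn5 arrays alone. Blocking on slide run gave a count of 567 (382 and 185). The count was 658 (426 and 232) against WT of the same run and 1843 (979 and 864) with array weights. With the 4 arrays alone and the letter as a replicate block it was 666 (433 and 233); A minus B of esa1 and of gcn5 correlated at 0.019 across genes, and the letters were not taken as pairs of samples, since they mark the dye. Leaving out 1 array gave 496 to 711 genes, 328 to 434 higher and 168 to 306 lower. On the deposited scale 0 genes passed in limma (0 higher and 0 lower), with 469 at an unadjusted p under 0.05, and there 1 named gene changed sign, QCR6 (-0.0263, from 0.58). Of 98 named genes no other turned under any alternative. In all 4 of the fits without 1 array 21 of the 24 leading genes were called. Precision is limited by the 2 arrays of each mutant.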

Other observations

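After KAR2 and STH1 had been seen, 4 further lists were written and are described without a test of the list. Of 13 genes for protein folding in the endoplasmic reticulum 6 were higher in esa1 and 2 lower, with a median of 0.81 (0.20 on the deposited scale), next to 11.6 and 8.03 percent over all genes. The list's array medians were 0.01 and -0.14 on esa1 arrays A and B and -0.64 and -0.84 on gcn5 arrays A and B. On the WT arrays they ran from -0.08 to 0.14. Besides KAR2 the higher ones were its nucleotide exchange factors SIL1 (1.80 ± 0.18) and LHS1 (0.81 ± 0.16), the disulfide genes ERO1 (1.46 ± 0.18) and PDI1 (1.39 ± 0.22), and MPD1 (1.04 ± 0.13). ERO1 lay at 0.38 and 0.23 in esa1 and -0.84 and -1.47 in gcn5, and PDI1 at 0.88 and 0.62 in esa1 and -0.37 and -0.90 in gcn5. The lower ones were CNE1 (-0.61 ± 0.18), the calnexin homologue, and the glucosidase gene CWH41 (-0.40 ± 0.14). All 6 higher genes passed with the run as a block and no lower one did, and the lower count was 1 without esa1 array A, 0 without esa1 array B, 0 without gcn5 array A and 1 without gcn5 array B. Protein mannosylation genes had 5 of 22 higher and 1 lower, among them PMT1 (0.81 ± 0.19) and PMT2 (0.77 ± 0.17), with a median of 0.19 that turned to -0.42 on the deposited scale. Their higher count was 4 with the run as a block, 2 without esa1 array A, 3 without esa1 array B, 4 without gcn5 array A and 1 without gcn5 array B.

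Of 16 RSC subunit genes 2 were lower in esa1, STH1 and ARP7 (-2.17 ± 0.67), and the list median was -0.15. ARP7 lay at -2.38 and -1.07 in esa1, values far apart from each other, and its difference was -1.25 and not called with the run as a block. The lower count of the list was 1 without esa1 array A, 2 without esa1 array B, 1 without gcn5 array A and 1 without gcn5 array B. RNA polymerase I and III genes had 3 of 18 lower and 0 higher, all of them polymerase III genes (RPC34, RPC31 and RPC53), with a median of -0.32; the lower count was 1 with the run as a block, with RPC34 (-0.60), RPC31 (-0.45) and RPC53 (-0.31) not called, and 0 without esa1 array A, 1 without esa1 array B, 3 without gcn5 array A and 0 without gcn5 array B. Among genes of the subtelomeric families 8 of 35 were higher in esa1, all COS genes, 7 of them with the run as a block, led by COS5 (0.91 ± 0.21) and COS1 (0.86 ± 0.12), while none of the PAU genes passed; the list median was 0.07, turning to -0.53 on the deposited scale, and COS genes are alike in sequence, so their spots may share signal.

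In the remaining lists most calls were lost when 1 array was left out, and each of the 4 arrays ended some of them. Over all genes tested 11.6 percent were higher and 8.03 percent lower in esa1. The lists were not tested against these shares. COR1 (0.87), QCR6 (0.52), SDH4 (-0.57), FUM1 (0.48), FTR1 (1.32), FIT2 (-0.91), ATX1 (-0.84), SIT1 (-0.49), RGT2 (0.73), OPI3 (0.68), ITR1 (0.51), PIS1 (0.47) and CLB1 (0.44) were not called with the run as a block. None of 33 proteasome genes passed in limma, with 1 at an unadjusted p under 0.05. Oxidative phosphorylation genes had 3 of 39 higher (COR1, COX4 and QCR6) and 3 lower (ATP16, QCR2 and SDH4), of which 1 kept its call whichever array was dropped. The TCA and glyoxylate list had 2 of 19 higher, ICL1 and FUM1, and 0 of these calls were kept. Of 26 iron uptake genes FTR1 was higher and FIT2, ATX1 and SIT1 lower, and 0 kept their call. Of 19 hexose transport genes HXT5 (1.22 ± 0.25) and the glucose sensor gene RGT2 were higher and HXT3 lower, with 1 call kept. That list does not hold HXT15, which was called lower in esa1 (-1.58 ± 0.27). Of 16 phospholipid genes OPI3, ITR1 and PIS1 were higher, with 0 calls kept. Of 26 G2/M and M/G1 genes PCL9 and CLB1 were higher, and PCL9 alone kept its call. Of 7 genes used as strain markers LEU2 and HIS3 were higher and MET17 lower, and all 3 kept their call.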
